A study of Mus musculus with 14 samples.

Results

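A set of 42 genes of DNA replication and mitosis was followed in EpH4 mouse mammary gland epithelial cells and in EpRas cells, their H-Ras-transformed derivative. The members were chosen by gene symbol, as genes whose mRNAs are known to be abundant in dividing cells, and all 42 were found among the 23284 genes of the expression tables. Of these, 22 serve the copying of DNA (licensing and helicase, nucleotide supply, replication fork, chromatin copying) and 20 serve mitosis (cyclins and kinases, checkpoint and exit, spindle and kinesins, chromosome and kinetochore). RNA-seq was performed after 48 h with or without TGF-β3 (1 ng/ml). Untransfected EpH4 and EpRas cells, each untreated or treated with TGF-β, gave 4 groups of 2 replicates. EpRas cells transfected with a negative control siRNA (siNC), with siRNAs Etv4_1 and Etv5_1 (pair 1) or with Etv4_2 and Etv5_2 (pair 2) gave 6 further libraries, 1 for each siRNA with and without TGF-β. All EpRas cells, transfected or not, carry the H-Ras transformation and were kept in 4% serum, whereas EpH4 cells were kept in 10% serum, so that the effects of transformation and of serum cannot be told apart. The lines are 1 parental line and 1 transformed derivative of it, and the siRNA-transfected libraries have no replicates.

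Before DNA is copied, the MCM helicase (Mcm2 to Mcm7) is loaded onto origins with the help of Cdc6 and Cdt1, and it is later activated by Cdc45 and the GINS complex. Ribonucleotide reductase, thymidylate synthase and thymidine kinase then supply nucleotides, while PCNA and the polymerases work at the fork. In mitosis, cyclins A and B with Cdk1, the Aurora and Polo kinases, spindle motors and the spindle checkpoint divide the copied chromosomes. In cycling cells, the replication genes are known as targets of E2F factors and peak around S phase, whereas mitosis genes are known to be controlled through CHR elements and CCAAT boxes and peak in G2 and M. TGF-β is known as a growth inhibitor of epithelial cells, and Ras signalling as a stimulus of the cell cycle. In bulk RNA, fewer cells in a phase and less RNA per cell in that phase cannot be told apart.

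The promoters of the members hold the 2 kinds of motif in unequal shares, and the stretches below are shown because they carry the motifs in genes whose levels are described later. Promoters from 250 bases before to 50 bases after the start site were taken from a set of RefSeq promoters (GRCm38.p6). The set used held 38 promoters of 35 members. It held none for Mcm4, Gins1, Gins2, Ccna2, Aurkb, Kif20a and Tpx2, which were not searched, and this does not mean that RefSeq itself lacks them. The words searched on both strands were TTTGGCGC, TTTGCCGC, TTTCGCGC and TTTCCCGC for E2F, TTTGAA and TTCGAA for the CHR, and CCAAT for the CCAAT box; none of these words contains another. An E2F word was found in 8 of 22 promoters of replication members (36.4%) and in 1 of 16 of mitosis members (6.25%), that of Cdk1, against 2.26% of all 32851 promoters and 4.49% of the 8370 promoters of the genes tested here. A CHR word was found in 12 of 16 promoters of mitosis members (75%) and in 4 of 22 of replication members (18.2%), against 19.2% of all promoters and 13.1% of those of the genes tested. The CCAAT box was held by 14 of 16 (87.5%) and 15 of 22 (68.2%) promoters, against 37.4% and 38.1%. These are matches of letters and not measured binding, and the promoters of one gene are not independent. The following stretches of 90 bases lie upstream of the start site and are written 5′ to 3′ on the strand of the gene. Capitals mark the E2F words, the CHR words and the CCAAT boxes on either strand.
Mcm7 (chr5:138172011-138172100, minus strand; CHR and E2F): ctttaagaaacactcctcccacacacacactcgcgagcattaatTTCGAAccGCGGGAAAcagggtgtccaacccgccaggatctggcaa
Pola1 (chrX:93632256-93632345, minus strand; E2F): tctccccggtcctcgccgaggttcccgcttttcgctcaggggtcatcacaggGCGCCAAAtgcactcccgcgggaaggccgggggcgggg
Uhrf1 (chr17:56304076-56304165, plus strand; E2F): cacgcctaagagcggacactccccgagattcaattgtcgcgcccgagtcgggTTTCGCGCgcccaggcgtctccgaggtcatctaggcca
Mcm2 (chr6:88898815-88898904, minus strand; CHR): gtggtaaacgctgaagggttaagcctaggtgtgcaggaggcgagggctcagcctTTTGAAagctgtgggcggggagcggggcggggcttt
Ccnb2 (chr9:70421686-70421775, minus strand; CHR): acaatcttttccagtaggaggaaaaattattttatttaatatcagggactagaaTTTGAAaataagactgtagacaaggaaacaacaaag
Bub1b (chr2:118597969-118598058, plus strand; CHR): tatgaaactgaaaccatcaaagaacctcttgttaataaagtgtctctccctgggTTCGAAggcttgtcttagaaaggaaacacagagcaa
Rrm1 (chr7:102441595-102441684, plus strand; CCAAT): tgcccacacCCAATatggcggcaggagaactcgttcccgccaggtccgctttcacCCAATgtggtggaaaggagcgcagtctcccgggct
Pcna (chr2:132253233-132253322, minus strand; CCAAT): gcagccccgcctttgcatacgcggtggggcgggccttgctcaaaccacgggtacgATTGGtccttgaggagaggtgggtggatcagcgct

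Levels are given as FPKM, the fragments of a gene scaled to its length and to the total mapped in that library. The depth of the libraries relative to the first of their table, read from the most common ratio of low values, lay between 0.61 and 1.36 in untransfected cells and between 1 and 1.74 in siRNA-transfected cells, and no number of reads was given. Of 7 epithelial markers, 6 reached 5 FPKM in untransfected cells (all but Krt5), with a summed level of 1612 to 3993 FPKM. Of these 6, Cdh1, Krt14 and Cldn7 were called lower in EpRas than in EpH4 cells without TGF-β, and these and Epcam with it, whereas with TGF-β Cdh1 and Krt14 rose in EpH4 and Krt14 fell in EpRas cells, and their part in the differences of the members was not tested. In untransfected cells, leukocyte markers summed to 0.293 to 7.13 FPKM, with Ptprc and Itgam listed at 0. Endothelial markers summed to 0.0 to 0.481 FPKM there, with Pecam1 and Tie1 listed at 0. Cd68 alone of the leukocyte markers reached 5 FPKM. Its mean was 1.65 FPKM in untreated EpH4 and 4.33 FPKM in untreated EpRas cells, and 1.52 against 5.62 FPKM with TGF-β. Neither difference passed by limma (log2 fold changes 1.01 and 1.55, adjusted p = 0.186 and 0.0549). With siRNAs and TGF-β, Cd68 was at 6.52 FPKM with siNC and at 2.18 and 3.37 FPKM with pairs 1 and 2. Its part was not tested. Of the TGF-β-responsive control genes, Smad7, Skil and Pmepa1 rose with TGF-β in EpH4 cells, and Skil and Pmepa1 did in EpRas cells. Smad7 did not pass in EpRas cells (log2 fold change 0.60, adjusted p = 0.19).

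**Figure D1:**
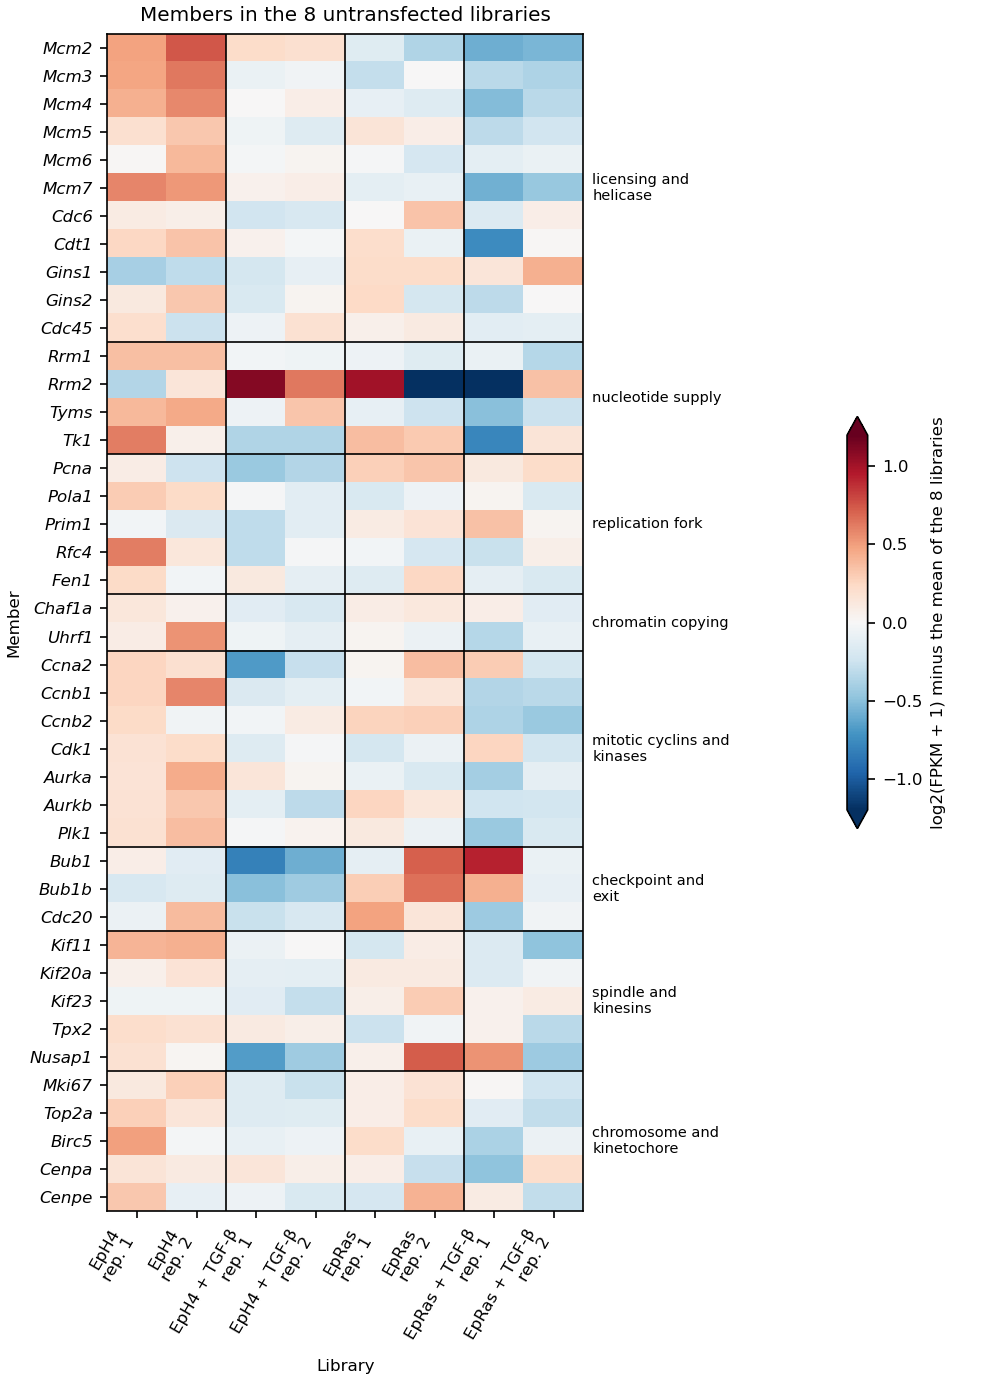
Level of each of the 42 members in the 8 untransfected libraries, as log2(FPKM + 1) minus the mean of the member over the 8 libraries, with colours capped at 1.2 either way. The libraries of untreated EpH4 cells are mostly red and those with TGF-β mostly blue, the MCM genes other than Mcm6 are bluest in EpRas cells with TGF-β, and Rrm2 differs between replicates.

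All 42 members passed the filter of 5 FPKM in 1 library or more and entered the test. Their mean level over the 8 libraries ranged from 6.93 FPKM for Pola1, a subunit of the primase-polymerase complex, to 225 FPKM for Rrm2, the small subunit of ribonucleotide reductase. The replicates were close for most members. The median SD between replicates was 0.15 on the log2 scale for the members, against 0.20 for all genes tested. Rrm2 stood apart with an SD of 1.10, larger than that of 98.8% of the genes tested, and the next members were Bub1 (0.47), Nusap1 (0.43) and Tk1 (0.39).

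The first question was how the transformed line differs from its parent. Without TGF-β, 4 members fell and 1 rose in EpRas against EpH4 cells, and all 5 belong to the helicase and its activation. They were Mcm2, Mcm3, Mcm4 and Mcm7, all lower, and Gins1, higher. The test was limma on log2(FPKM + 1) with Benjamini-Hochberg adjustment over 9100 genes, of which 8.45% were called higher and 9.11% lower at an adjusted p under 0.05. So 5 of 42 members called is below the background share of all genes in both directions together, whereas 4 of 11 genes of licensing and helicase were called lower. The median change of the members was -0.11 on the log2 scale (-0.22 for replication and -0.06 for mitosis members), against -0.00311 for all genes tested.

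Mcm2, a subunit of the replicative helicase (mm10 chr6:88883474-88898780), was at 149 and 178 FPKM in untreated EpH4 cells and at 96.0 and 82.4 FPKM in untreated EpRas cells. In treated cells its level was 124 and 121 FPKM for EpH4 and 70.4 and 72.3 FPKM for EpRas. The groups did not overlap, and the lowest EpH4 library was above the highest EpRas library. The log2 fold change without TGF-β was -0.87 (SE 0.16, adjusted p = 0.0109), or 0.546 times the EpH4 mean, and with TGF-β -0.77 (SE 0.16, adjusted p = 0.0137). Mcm7, another helicase subunit (chr5:138164589-138171862), was at 148 and 141 FPKM in untreated EpH4 cells, 102 and 104 FPKM with TGF-β, 90.3 and 91.9 FPKM in untreated EpRas cells and 65.2 and 71.3 FPKM in treated EpRas cells. These 4 groups were ordered without overlap, untreated EpH4 cells being the highest and treated EpRas cells the lowest. Its log2 fold change between the lines was -0.66 (SE 0.14, adjusted p = 0.018) without and -0.58 (SE 0.14, adjusted p = 0.0233) with TGF-β. The call of Mcm7 was lost in 6 of 16 alternatives without and in 5 of 16 with TGF-β. That of Mcm2 was lost in 2 of 16 in each comparison.

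Mcm3, Mcm4 and Gins1 are given because they were called, which was known when they were chosen. Mcm3 (chr1:20803014-20820213) was at 147 and 164 FPKM in untreated EpH4 and at 86.2 and 106 FPKM in untreated EpRas cells (log2 fold change -0.69, SE 0.16, adjusted p = 0.0254). Mcm4 (chr16:15623897-15637400) was at 66.8 and 73.9 against 46.2 and 44.3 FPKM (-0.62, SE 0.15, adjusted p = 0.0289). The other helicase subunits were closer between the lines. The level of Mcm5 was 119 ± 7.71 FPKM (mean ± SD, n = 2) for EpH4 and 108 ± 3.88 FPKM for EpRas cells, and Mcm6 was 118 ± 21.4 and 94.4 ± 8.93 FPKM, with neither called. Gins1, a subunit of the GINS complex that activates the helicase (chr2:150909594-150931280), went the other way, at 13.5 and 14.5 FPKM in EpH4 and 21.2 and 21.3 FPKM in EpRas cells (0.57, SE 0.16, adjusted p = 0.045). Of 16 alternatives, the call was lost in 8 for Gins1, in 8 for Mcm4 and in 6 for Mcm3, with no change of direction. The loading factors Cdc6 and Cdt1, the GINS subunit Gins2 and the helicase activator Cdc45 did not pass, with log2 fold changes of 0.09, -0.23, -0.21 and 0.11.

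**Figure D2:**
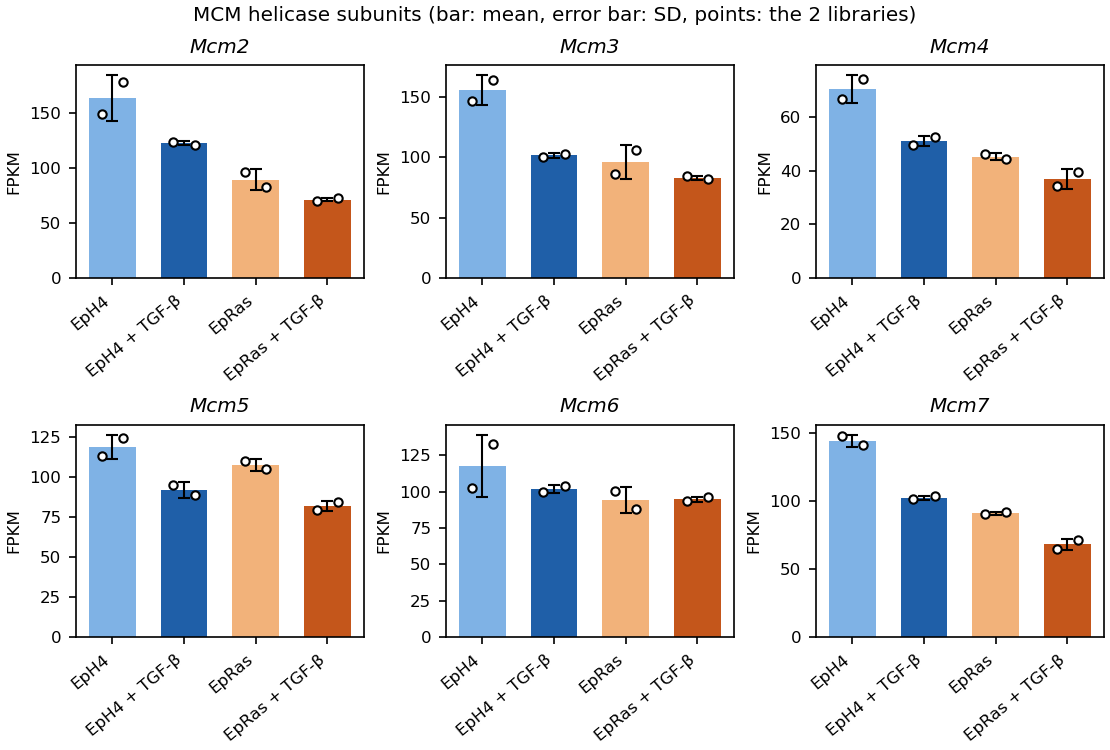
FPKM of the 6 MCM helicase subunits in the 4 groups of untransfected cells. Bars give the mean, error bars the SD and points the 2 replicates. Mcm2, Mcm3, Mcm4 and Mcm7 are lower in EpRas than in EpH4 cells without TGF-β, whereas the bars of Mcm5 and Mcm6 differ less between the lines.

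With TGF-β, 2 members fell (Mcm2 and Mcm7) and 1 rose (Pcna) in EpRas against EpH4 cells, while 8.92% of all genes were called higher and 12.3% lower. Pcna, the sliding clamp of the polymerases (chr2:132249286-132253180), was at 92.9 and 99.0 FPKM in treated EpH4 and at 138 and 148 FPKM in treated EpRas cells (0.57, SE 0.17, adjusted p = 0.0481), a call lost in 11 of 16 alternatives with adjusted p from 0.0523 (genes with a mean of at least 10 FPKM) to 0.24 (without replicate 1 of treated EpH4 cells). Without TGF-β it was at 135 and 106 FPKM in EpH4 and at 155 and 161 FPKM in EpRas cells, a log2 fold change of 0.39 that did not pass (adjusted p = 0.151). Thus the helicase subunits that were called and the clamp lay on opposite sides between the same libraries. The median change of the members was -0.09, against -0.00766 for all genes tested.

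At an unadjusted p under 0.05, 3 of the 42 members were higher and 9 lower without TGF-β, the called ones included, against 16.2% and 16.4% of all genes. With TGF-β, 5 were higher and 5 lower, against 16.2% and 19.5%. By the Tukey-Kramer test on FPKM, unadjusted over genes, 1 was higher and 6 lower without TGF-β, against 7.13% and 9.05% of all genes, and 1 was higher and 3 lower with it, against 6.74% and 12%. Apart from the 6 lower by Tukey-Kramer without TGF-β and the 9 lower at an unadjusted p, these counts are below the shares of all genes. Tyms, thymidylate synthase, was at 29.1 and 30.4 FPKM in untreated EpH4 and 20.4 and 18.4 FPKM in untreated EpRas cells, and with TGF-β at 21.0 and 27.9 against 15.2 and 18.2 FPKM. Rrm1, the large subunit of ribonucleotide reductase, was at 74.7 and 74.8 against 55.5 and 52.2 FPKM without TGF-β, and at 56.6 and 55.9 against 54.8 and 45.4 FPKM with it. Pola1 was at 8.7 and 8.22 against 5.92 and 6.57 FPKM without TGF-β, and at 6.79 and 6.23 against 7.06 and 5.95 FPKM with it. These 3 genes were lower in EpRas than in EpH4 cells without overlap in untreated cells, but none passed the adjusted test (lowest adjusted p = 0.0671, for Tyms). In untreated cells, Rrm1 passed by limma with 5 FPKM added before the logarithm (adjusted p = 0.0489) or with no filter on low values (0.0451).

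Among the chromatin members, Chaf1a (a subunit of the histone chaperone CAF-1) was at 49.0 and 46.3 FPKM in EpH4, 40.3 and 38.8 with TGF-β, 47.3 and 48.7 in EpRas and 47.0 and 40.3 FPKM in treated EpRas cells. Uhrf1, which helps to copy DNA methylation, was at 59.0 and 80.8, 53.3 and 51.2, 56.7 and 52.7, and 43.5 and 51.9 FPKM in the same order. The lines overlapped for Chaf1a without TGF-β and for Uhrf1 with TGF-β.

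No mitosis member was called between the lines by limma, without or with TGF-β. At an unadjusted p under 0.05, 1 mitosis member was higher and 2 lower without TGF-β, 2 were higher and 1 lower with it, all below the shares of all genes given above for that threshold, and 0 were called by the Tukey-Kramer test in either condition. Of the checkpoint members, Bub1b lay above the parent line in EpRas cells in both conditions. Bub1b, a checkpoint kinase-like protein, was at 30.8 and 31.6 FPKM in untreated EpH4 and 43.6 and 56.5 FPKM in untreated EpRas cells, and at 24.8 and 26.2 against 47.8 and 33.1 FPKM with TGF-β (0.65 and 0.63, adjusted p = 0.0786 and 0.0788). Bub1, a checkpoint kinase, was at 7.9 and 6.71 against 6.83 and 12.9 FPKM, and with TGF-β at 3.83 and 4.64 against 15 and 6.98 FPKM. The 2 lines thus overlapped for Bub1 in untreated cells only. The proliferation marker Mki67 was at 21.8 and 24.6 FPKM in untreated EpH4 and 21.2 and 22.7 FPKM in untreated EpRas cells, and Top2a, the topoisomerase that untangles chromosomes, at 111 and 101 against 96.2 and 107 FPKM. Their log2 differences were -0.07 (95% interval -0.45 to 0.30) and -0.07 (-0.42 to 0.29).

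Groups that do not overlap were counted as a coarser measure. Without TGF-β, 19 of 42 members were lower and 6 higher in each EpRas library than in each EpH4 library, against 30.4% and 30.6% of all genes tested. With TGF-β the counts were 17 and 9, against 32.7% and 30.2%. Of the 19, 12 were replication members and 7 mitosis members, and in both conditions 7 of the 11 genes of licensing and helicase were lower.

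The calls were recounted with 1 library left out at a time, when the calls over all genes moved as well. Without TGF-β, leaving out any 1 library of untreated or treated EpH4 cells or of untreated EpRas cells left 1 member called lower (0 without replicate 2 of untreated EpH4 cells) and 0 higher, while those over all 9100 genes went from 829 to between 403 and 551 lower and from 769 to between 327 and 502 higher. In the same comparison, without replicate 1 or replicate 2 of treated EpRas cells, Bub1b was also called higher and Rrm1 also called lower. Their log2 fold changes were those with all libraries (0.65 and -0.47). With TGF-β, 0 members were lower without replicate 1 or replicate 2 of treated EpH4 cells (516 and 582 of all genes, from 1123) and 1 without replicate 1 of treated EpRas cells (926). Without replicate 2 of treated EpRas cells 4 were lower (adding Mcm4 and Cdt1) and 4 higher (Bub1, Bub1b, Nusap1 and Prim1), against 1392 lower and 992 higher of all 9100 genes, both larger shares than those of the members. The higher count was 0 without any 1 library of treated EpH4 or untreated EpRas cells (306 to 707 of all genes, from 812).

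**Figure D3:**
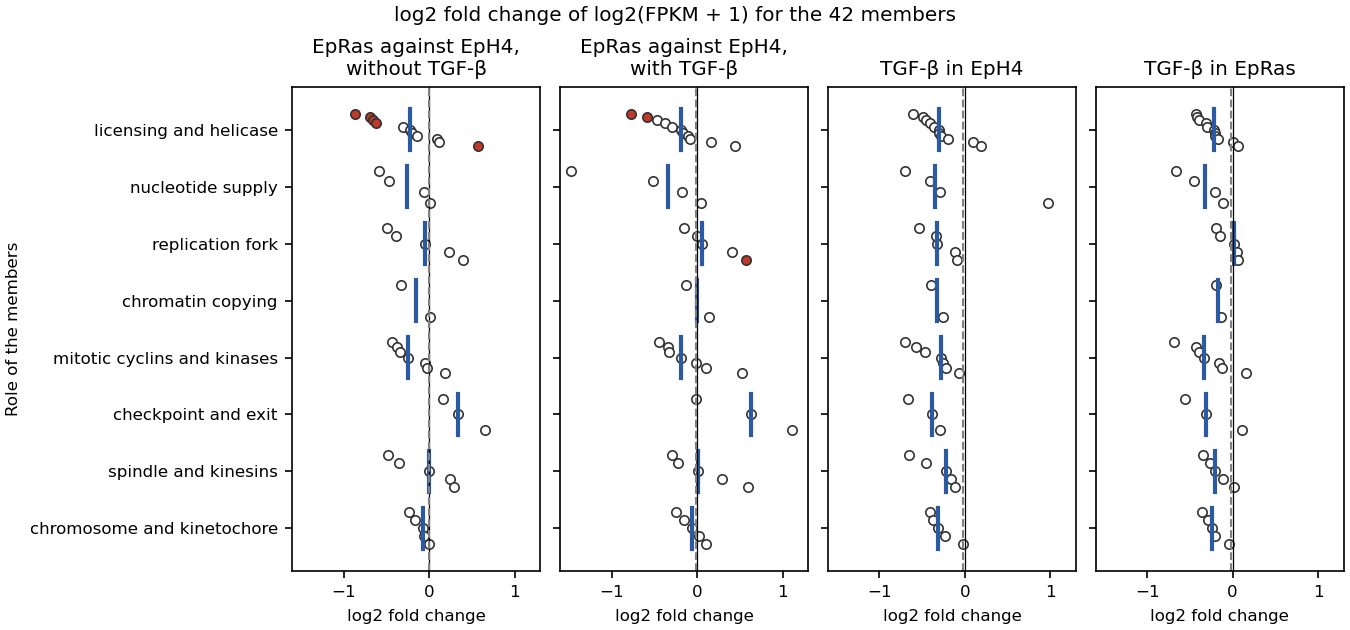
log2 fold change of each member by role in the 4 comparisons of untransfected cells. Points are members (red where the adjusted p is under 0.05), blue bars the median of a role and the dashed line the median of all genes tested. The called members lie in licensing and helicase and, with TGF-β, at the replication fork, and in EpH4 cells treated with TGF-β all 8 role medians lie below 0.

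The second question was how the cells of each line responded to TGF-β. In EpH4 cells, 39 of 42 members had lower mean levels with TGF-β, and the median change was -0.30 on the log2 scale, against -0.02 for all genes tested. The median was -0.31 for replication and -0.30 for mitosis members. No single member passed, with 0 called higher and 0 lower by limma against 6.48% and 2.91% of all genes. At an unadjusted p under 0.05, 13 members were lower and 0 higher, against 10.5% and 13.5% of all genes. By the Tukey-Kramer test, 6 were lower (Mcm3, Mcm4, Mcm5, Mcm7, Rrm1 and Aurkb) and 0 higher, against 4.67% and 8.44%. With TGF-β, 33 members were lower and 2 (Gins1 and Rrm2) higher in both libraries than in both untreated libraries, against 30.4% and 30.2% of all genes.

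Mcm3 came closest to the threshold in EpH4 cells, at 147 and 164 FPKM untreated and 100 and 103 FPKM with TGF-β (-0.61, SE 0.16, adjusted p = 0.059), followed by Mcm7 (-0.49, adjusted p = 0.0741). Both passed with 5 FPKM added before the logarithm (adjusted p = 0.0349 and 0.0346) or with no filter on low values (0.0447 and 0.0296), and Mcm7 passed without either library of treated EpRas cells (0.0446). Ccnb1, cyclin B1, was at 36.1 and 45.5 FPKM untreated and 26.4 and 27.5 FPKM with TGF-β (-0.57, SE 0.17, adjusted p = 0.0805). Kif11, a motor that pushes the spindle poles apart, was at 28.3 and 28.6 against 20.0 and 21.1 FPKM. Tpx2, which activates Aurora A on the spindle, was at 57.6 and 56.5 against 53.3 and 51.9 FPKM. All 5 had lower levels in both treated libraries than in both untreated ones. Mki67 was at 17.9 and 16.4 FPKM and Top2a at 81.6 and 82.3 FPKM with TGF-β, below both untreated libraries (-0.41 and -0.37, adjusted p = 0.171 and 0.188).

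Ccna2, Tk1 and Aurkb are added for EpH4 cells, chosen after their values were seen. Ccna2, cyclin A2, was at 74.2 and 70.6 FPKM untreated and 38.2 and 50.7 FPKM with TGF-β (-0.70, SE 0.23, adjusted p = 0.119), and in EpRas cells at 63.3 and 80.3 against 76.6 and 53.2 FPKM. Tk1, thymidine kinase, was at 252 and 171 against 128 and 128 FPKM in EpH4 cells (-0.70, SE 0.31, adjusted p = 0.232) and at 214 and 205 against 95 and 183 FPKM in EpRas cells. Aurkb, the Aurora kinase of the chromosomal passenger complex, was at 61.3 and 67.9 against 49.9 and 43.5 FPKM in EpH4 and at 65.1 and 59.8 against 45.7 and 46.4 FPKM in EpRas cells. For Tk1 and Aurkb both treated libraries lay below both untreated ones in each line, for Ccna2 in EpH4 cells only. The smallest changes in EpH4 cells were those of Cenpa (-0.02), Ccnb2 (-0.06), Cdc45 (0.09) and Fen1 (-0.09).

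In EpRas cells, 34 of 42 members had lower mean levels with TGF-β, with a median change of -0.21, against -0.02 for all genes. By limma 0 members were called higher and 0 lower, against 1.9% and 1.92% of all genes, while 7 were lower and 0 higher at an unadjusted p under 0.05, against 8.07% and 7.78% of all genes. By the Tukey-Kramer test, 4 were lower (Mcm5, Mcm7, Ccnb2 and Aurkb) and 0 higher, against 3.42% and 3.54%. The groups did not overlap for 19 members that were lower and for 0 that were higher, against 20.9% and 18.5% of all genes. Ccnb2, cyclin B2, had the smallest p. It was at 28 and 28.5 FPKM untreated and 17.6 and 16.8 FPKM treated in EpRas cells (-0.68, SE 0.16, adjusted p = 0.0661), and at 27.3 and 22.5 against 22.5 and 24.9 FPKM in EpH4 cells. Ccnb1 was at 29.2 and 33.1 against 23.2 and 23.8 FPKM, Kif11 at 18.1 and 22.4 against 18.6 and 14.8 FPKM, and Tpx2 at 41.3 and 48.0 against 51.3 and 39.4 FPKM in EpRas cells. Treated and untreated libraries were apart for both cyclins, and overlapped for Kif11 and Tpx2. Mki67 was at 20.3 and 16.9 FPKM and Top2a at 83.0 and 74.3 FPKM with TGF-β.

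Taking both lines, which share no library, 17 members (40.5%) were lower with TGF-β without overlap in EpH4 and in EpRas cells, against 10.9% of all genes. They were 51.5% of the 33 members lower in EpH4 cells and 89.5% of the 19 in EpRas cells, where the shares over all genes were 35.7% and 52.1%. None was higher in both lines, whereas 11.2% of all genes were. The 17 were Mcm2, Mcm3, Mcm4, Mcm5, Mcm7, Tyms, Tk1, Pcna, Chaf1a, Uhrf1, Ccnb1, Aurkb, Plk1, Cdc20, Kif20a, Mki67 and Top2a. They include 5 of 6 helicase subunits, thymidine kinase, the Aurora B and Polo kinases and Cdc20, the activator of the anaphase-promoting complex. No member's response to TGF-β passed the test for a difference between EpH4 and EpRas cells. By limma's interaction term 0 members were called in either direction, against 0.176% (EpRas above EpH4) and 0.626% (below) of all genes, and 1 member (Ccnb2, -0.62, adjusted p = 0.364) was lower and 0 higher at an unadjusted p under 0.05, against 7.19% and 3.69%.

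**Figure D4:**
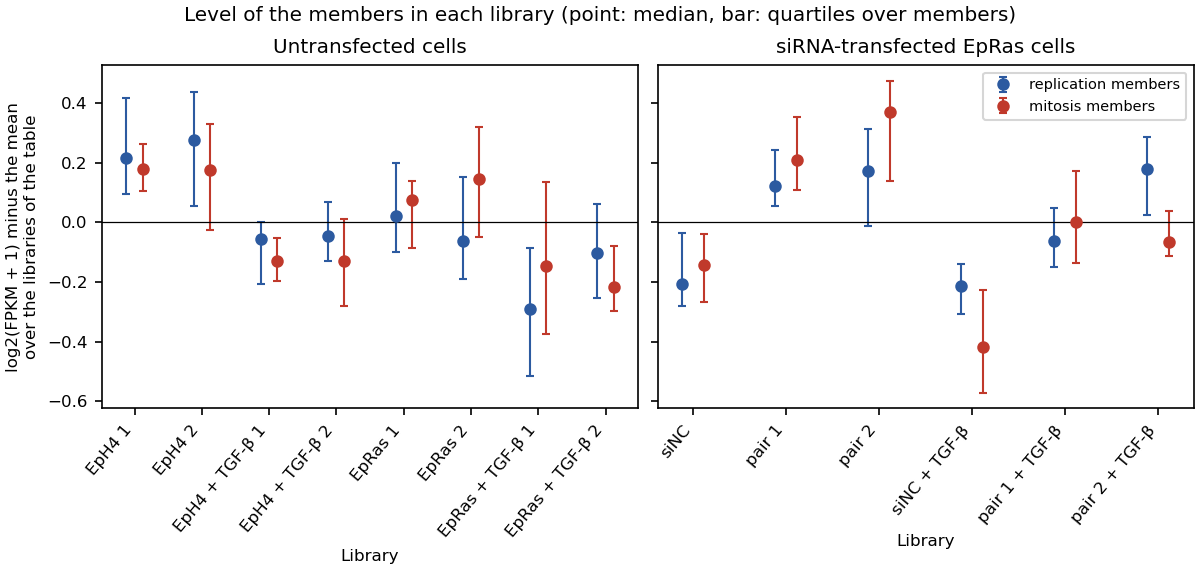
Median and quartiles over the replication and the mitosis members of log2(FPKM + 1) minus the mean over the libraries of the same table, for each library. Both untreated EpH4 libraries lie above both treated ones, and the siNC libraries lie lowest among the siRNA-transfected ones within each treatment.

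Rrm2 did not follow the other members. It was at 147 and 206 FPKM in untreated EpH4, 403 and 290 FPKM in treated EpH4, 376 and 74.0 FPKM in untreated EpRas and 62.3 and 239 FPKM in treated EpRas cells. Replicates of EpRas cells differed by up to 5.08 times, in opposite order with and without TGF-β, and no comparison between groups passed for this gene. For its partner Rrm1, the replicates of the same groups were at 55.5 and 52.2 and at 54.8 and 45.4 FPKM. The deposited interval for Rrm2 in the first untreated EpRas library, 133 to 619 FPKM, did not overlap that in the second, 33.6 to 114 FPKM.

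Other genes of the cell cycle were counted from lists of their known roles. Of 35 other replication genes, 1 rose and 5 fell in EpRas against EpH4 cells without TGF-β, and 3 rose and 3 fell with it, against 8.45% and 9.11%, and 8.92% and 12.3%, of all genes. Mcm10, which links the helicase to the polymerases, fell in both (-1.13 and -0.87, adjusted p = 0.00386 and 0.00823), as did Rfc1, the large subunit of the clamp loader (-1.16 and -0.86), while Pole, the leading-strand polymerase, rose (0.67 and 0.58). Of 44 other mitosis genes tested, 1 rose and 3 fell without and 2 rose and 2 fell with TGF-β, each a smaller share than that of all genes. Cdc25b, a phosphatase that activates cyclin-dependent kinases, rose in both (0.74 and 0.84), and Tacc3, a spindle protein, fell in both (-0.73 and -0.88). With TGF-β in EpH4 cells, 33 of the 35 replication and 42 of the 44 mitosis genes had lower mean levels (medians -0.38 and -0.32), of which 0 and 2 (Anln and Cdc25b) were called lower by limma, with 15 and 12 lower at an unadjusted p under 0.05, against 2.91% of all genes called and 10.5% at the unadjusted threshold. In EpRas cells 29 and 41 had lower mean levels (medians -0.18 and -0.20), with 0 called by limma and 2 and 11 lower at an unadjusted p under 0.05, against 1.92% and 8.07% of all genes.

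Of the 16 G1 and E2F-Rb genes tested, 1 rose and 1 fell in EpRas against EpH4 cells without TGF-β, and of the 4 CDK inhibitors tested, 1 rose and 2 fell, against 8.45% and 9.11% of all genes. Between treated EpRas and EpH4 cells, 3 and 1 rose and 3 and 1 fell, against 8.92% and 12.3%. E2f8 (1.01), the kinase Cdk6 (1.05) and the transcription factor Myc (0.61) were the G1 and E2F-Rb genes called higher in treated EpRas than in treated EpH4 cells, and Ccnd2 (-2.24), E2f1 (-0.70) and Rbl1 (-0.58), a relative of Rb, were those called lower. Ccnd2, cyclin D2, was at 9.57 and 7.78 FPKM in EpH4 and at 0.452 and 0.54 FPKM in EpRas cells (-2.69, SE 0.16, adjusted p = 6.56e-05), and E2f8, a repressor of E2F targets, was at 14.0 and 15.2 against 28.3 and 27.7 FPKM (0.89, SE 0.15, adjusted p = 0.00711). Cdkn1b, the inhibitor p27, was at 59.8 and 55.3 against 26.1 and 19.8 FPKM (-1.30, SE 0.19, adjusted p = 0.00416), and it was also called lower between the treated cells of the lines (-1.79, adjusted p = 0.000683). Without TGF-β Cdkn2c also fell (-0.90, adjusted p = 0.03). Cdkn2d, another inhibitor of the kinases, rose, from 15.3 and 14.6 to 24.8 and 37.1 FPKM (0.98, SE 0.20, adjusted p = 0.0169), and was also called higher with TGF-β (1.08, adjusted p = 0.00884). With TGF-β in EpH4 cells, Cdk6 and Ccnd2 fell (-1.21 and -0.80, adjusted p = 0.0157 and 0.0242), Cdkn1a, the inhibitor p21, rose from 76.4 and 72.9 to 125 and 120 FPKM (0.70, SE 0.16, adjusted p = 0.0387), and Cdkn2c fell there (-1.04, adjusted p = 0.0271). In EpRas cells, 0 of the 16 G1 and E2F-Rb genes and 0 of the 4 inhibitors tested were called with TGF-β by limma, with 1 higher and 1 lower of the former and 1 lower of the latter at an unadjusted p under 0.05, against 1.9% and 1.92% of all genes called and 7.78% and 8.07% at the unadjusted threshold. Cdkn1c, Cdkn2a and Cdkn2b are listed at 0 in all 8 libraries.

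The third question was whether the members changed when Etv4 and Etv5 were depleted in EpRas cells. Both targets were lower in both pairs. Etv4 was at 57.4 FPKM with siNC and at 11.6 and 27.9 FPKM with pairs 1 and 2, and with TGF-β at 64.3 against 12.6 and 18.9 FPKM. Etv5 was at 8.85 against 1.61 and 1.26 FPKM, and with TGF-β at 5.34 against 1.24 and 1.2 FPKM. With 1 library per condition no test was made, and both pairs are compared with the same siNC library, so that the 2 differences are not independent. A member was counted where both pairs differed from siNC by at least 1.5-fold of FPKM + 1 in the same direction.

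Without TGF-β, 37 of 42 members were above siNC with pair 1 and 33 with pair 2, with median log2 differences of 0.29 and 0.44, against 0.02 and 0.01 for all genes. The mitosis members had medians of 0.39 and 0.49 and the replication members of 0.24 and 0.30. Among genes that are not members, the other replication genes had medians of 0.31 and 0.29 and the other mitosis genes of 0.34 and 0.43. The G1 and E2F-Rb genes had medians of -0.06 and -0.23, so that not all lists of the cell cycle lay above siNC. By the 1.5-fold rule 7 members were higher and 0 lower, against 6.74% and 7.41% of 9094 genes. They were Cdt1 and Fen1 of the replication members and Aurkb, Bub1b, Kif23, Nusap1 and Cenpa of the mitosis members. Cdt1, the licensing factor, was at 22.0 FPKM with siNC and at 45.8 and 40.7 FPKM with the pairs. Bub1b was at 27.8 against 44.7 and 61.9 FPKM. Nusap1, a microtubule-binding protein of the spindle, was at 9.27 against 17.2 and 16.7 FPKM. In each case the pairs were closer to each other than to siNC on the log2 scale. The genes were picked by a rule that asks both pairs to differ from siNC in the same direction. Their closeness is therefore no separate evidence.

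Cenpa, the centromeric histone, was at 47.7 FPKM with siNC and at 75.5 and 88.4 FPKM with the pairs. Kif23, a motor of the central spindle, was at 29.9 against 51.4 and 47.5 FPKM. Fen1, the flap endonuclease of lagging-strand synthesis, was at 56.2 against 91.4 and 86.3 FPKM. That all of these exceeded siNC with both pairs follows from the rule by which they were counted. Aurkb was the last of the 7, at 36.2 against 55.9 and 56.6 FPKM. Mki67 was at 16.4 against 21.1 and 28.8, Pcna at 163 against 186 and 165, and Top2a at 72.8 against 79.5 and 97.6 FPKM, none of which met the rule.

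With TGF-β, 35 and 36 of 42 members were above siNC with pairs 1 and 2, with medians of 0.30 and 0.35, against 0.02 and 0.03 for all genes. The other replication genes had medians of 0.16 and 0.23, the other mitosis genes of 0.35 and 0.26, and the G1 and E2F-Rb genes of 0.00326 and 0.04. The rule was met by 3 members that were higher and by 0 that were lower, against 5.65% and 6.87% of all genes. Birc5, the survivin subunit of the passenger complex, was at 65.1 FPKM with siNC and at 161 and 156 FPKM with the pairs. Tk1 was at 97.3 against 176 and 256 FPKM, and Nusap1 at 7.02 against 12.3 and 11.1 FPKM. Of these, Nusap1 was also counted without TGF-β. Mki67 was at 12.7 against 27.3 and 15 FPKM, Pcna at 154 against 142 and 201 FPKM, and Top2a at 61.6 against 78.1 and 72.4 FPKM. For Mki67 the 2 pairs differed from each other by more than one of them did from siNC, and for Pcna they lay on opposite sides of siNC. The 95% intervals deposited with the FPKM overlapped between a pair and siNC in all 4 comparisons of every member, the number of members with separate intervals being 0. These intervals were wide, as for Mcm2 with siNC and no TGF-β (31.2 to 86.2 FPKM). The same count over all genes is not given here, so that the 0 cannot be set against other genes.

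**Figure D5:**
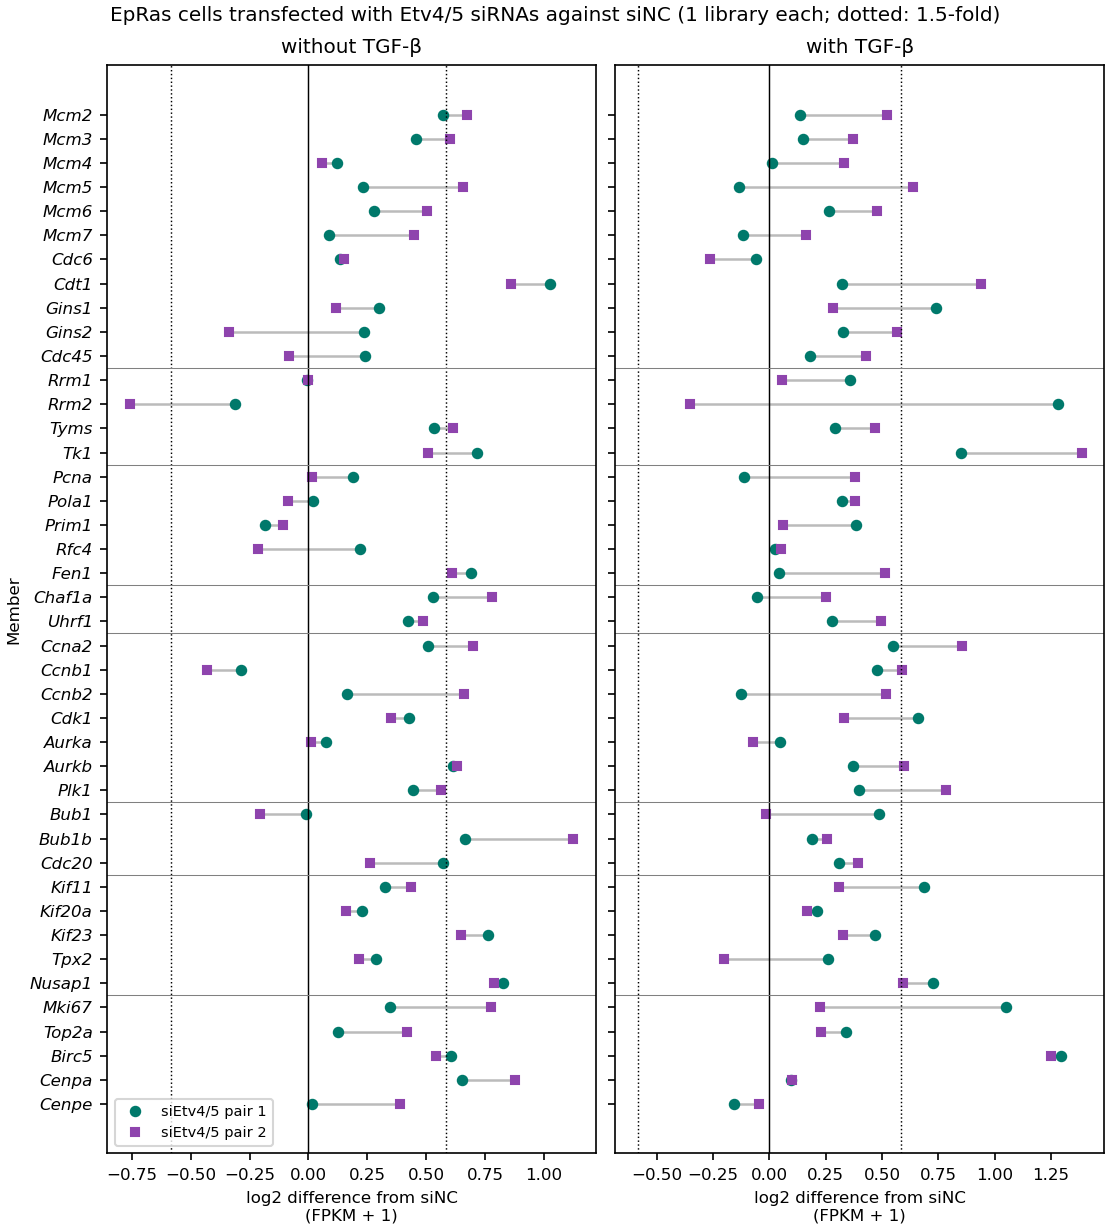
log2 difference of FPKM + 1 of each member between each Etv4/5 siRNA pair (circles, pair 1; squares, pair 2) and siNC, without and with TGF-β, with 1 library per condition. Dotted lines mark 1.5-fold. Most points lie to the right of 0 in both panels, and Rrm2 and Mki67 have pairs that lie far apart.

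TGF-β itself was measured again in the siRNA-transfected cells, which were processed separately from the untransfected ones. The members had a median log2 change of -0.12 with siNC, -0.25 with pair 1 and -0.19 with pair 2, against 0.0, 0.00165 and 0.02 for all genes. The mitosis members had medians of -0.23, -0.23 and -0.31, and the replication members of -0.07, -0.27 and 0.01. Only Rrm2 changed by at least 1.5-fold in the same direction under all 3 siRNAs, higher in each, and 0 members were lower, against 3.14% and 1.99% of all genes. Rrm2 went from 123 to 260 FPKM with siNC, from 98.6 to 633 FPKM with pair 1 and from 72.1 to 203 FPKM with pair 2. All 3 treated libraries were above all 3 untreated ones, whereas in untransfected EpRas cells the replicates overlapped between the treatments. Those replicates of Rrm2 differed by up to 5.08 times within a treatment. With 1 library per siRNA condition, the rise of Rrm2 was not tested against such a spread.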

How the data were processed

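mRNA of EpH4 and EpRas cells was sequenced directionally on the Ion Proton by the authors in 14 libraries. Per the submitters' processing notes, reads were aligned to mm10 with TopHat2 2.0.11 (Bowtie2 named), and the authors deposited FPKM from Cuffdiff (Cufflinks 2.2.0), each with its interval, in 1 table for untransfected and 1 for siRNA-transfected cells. FPKM is relative to the library total, and the tables were not compared. Genes without an OK status (3 and 2) were left out, and genes reaching 5 FPKM in a library were kept (9100 and 9094). No column of per-sample values was unused (0).

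Untransfected groups were compared with limma 3.58.1 (R 4.3.3) on log2(FPKM + 1), two-sided, with all 4 groups sharing the spread, no block, and Benjamini-Hochberg adjustment over all genes. Fold changes of low genes are understated by the added 1. The script was tested on simulated data. Replicates are described as biological by the study. The limma p-values rest on the spread between the 2 libraries of a group, pooled over the 4 groups and moderated over genes. siRNA libraries were described by folds. Promoters came from RefSeq (GRCm38.p6). Python 3.11.15, pandas 2.3.3, numpy 2.4.6 and scipy 1.17.1 were used. Named were Mki67, Pcna, Top2a, the 2 members with the smallest p in each of 8 roles, those past the siRNA fold limit, and up to 3 genes per direction of other lists, and other members (those called, the remaining helicase genes, Ccna2, Tk1, Aurkb and the smallest changes) were added after their values were seen. The members and lists were chosen with earlier results of these data known. Some marker and control genes are not reported here.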

Additional observations from a re-analysis of the deposited data

How the results depend on the processing

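Groups had 2 libraries each, every siRNA condition had 1, and no number of reads was given, so that the only intervals of single values are those deposited with the FPKM. Serum differed between the lines. No direction of a called member reversed under any of the alternatives run. Mcm2 kept its call in 14 of 16 alternatives in each comparison of the lines, Mcm7 in 10 of 16 without and 11 of 16 with TGF-β, Mcm3 in 10, Mcm4 and Gins1 in 8 each, and Pcna in 5 of 16. The median-ratio factors of the untransfected libraries lay between 0.958 and 1.02. Scaling by them thus changed the levels little, and it left all counts of called members within 1.5 times.

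Without TGF-β, the members called higher in EpRas against EpH4 cells went from 1 to 0, and those lower from 4 to 2, with only the 2 groups compared (769 to 536 and 829 to 584 of all 9100 genes). With TGF-β, the higher count went from 1 to 0 with 0.1 FPKM added, with a mean of at least 10 FPKM, with only the 2 groups and with an intensity trend, and the lower count from 2 to 1 with only the 2 groups. Over all genes these higher counts were 780, 459 (of 6187), 517 and 837 (812 before), and the lower count 802 (1123 before). For TGF-β in EpH4 cells, 0 lower became 2 with 5 FPKM added and 2 with no filter (286, and 358 of 15244, over all genes, 265 before), and 6 by the Tukey-Kramer test, which gave 4 in EpRas cells (4.67% and 3.42% of all genes).

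Leaving out each library in turn, the counts ranged from 0 to 2 higher and from 0 to 5 lower without TGF-β, from 0 to 4 higher and from 0 to 4 lower with TGF-β, and from 0 to 1 lower for TGF-β in EpH4 cells. Over all genes the same 5 counts ranged from 327 to 1001, 403 to 1063, 306 to 992, 516 to 1392 and 56 to 374, the single library left in a group being taken to vary like the others.

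With the replicate number as a replicate block, the count called higher was 0 without and 0 with TGF-β, and that called lower with TGF-β was 1 (531, 618 and 902 over all genes), and no other count moved by over 1.5 times. The numbers share no batch or animal by the labels, and the deviations of same-numbered libraries correlated between -0.35 and 0.08, so that they were not taken as pairs.

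In siRNA-transfected cells, the members higher than siNC without TGF-β were 0 at a 2-fold limit, 19 at a ratio limit of 5 to 4 and 11 by the mean of the pairs (7 by the rule), against 1.54%, 16.4% and 11.5% of all genes. With TGF-β they were 1, 11 and 8 (3 by the rule), against 1.33%, 15.4% and 10.3%. With TGF-β under all 3 siRNAs, 3 members were lower at the ratio limit of 5 to 4, against 5.07% of all genes.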
